A study of Mus musculus with 12 samples.

Results

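CC chemokines are small secreted proteins that draw leukocytes along a gradient, and 10 of them were followed in mouse embryonic fibroblasts labelled as wild type or as lacking the histone methyltransferase MLL1. The 10 genes were Ccl2, Ccl7, Ccl8 and Ccl11, which attract monocytes and eosinophils, Ccl3, Ccl4, Ccl5 and Ccl9, which attract monocytes and T cells, and Ccl17 and Ccl20, which attract T cell and dendritic cell subsets. They were chosen by name, each was read by 1 probe set, and they were 10 of 19938 genes with a probe set of 1 gene symbol. All were kept whatever their level, and 7 of the 10 had a mean above the 30th percentile of all genes, an intensity of about 174.8. The 3 below it were Ccl3, Ccl8 and Ccl11.

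The cells were wild type or carried the label MLL1 KO, a knockout of the H3K4 methyltransferase encoded by Kmt2a. All groups shared a medium holding fetal bovine and newborn calf serum at 5% each, and a 2 h pulse of 50% horse serum, a shock that aligns the clocks of cultured cells. They were sampled at 18 h (labelled CT18) or 30 h (labelled CT30). The 4 groups held 3 Affymetrix arrays each, and the design asks how the genotypes differ at 2 circadian times. Strain, embryo age, the disrupted part of the gene and the number of lines behind each genotype are not stated in the labels used here. It is also not stated whether replicates came from separate cultures. A p-value here therefore weighs a difference against array-to-array spread that could be purely technical.

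CC chemokines carry neighbouring cysteines near their amino end and signal through G protein-coupled CCR receptors on leukocytes, while heparan sulfate chains hold them near the cell that made them. Fibroblasts make several of them as sentinels of injury and infection. Their genes are classical targets of NF-kB downstream of TNF, interleukin 1 and Toll-like receptors, and Ccl5 is also a classical target of interferon regulatory factors. In mouse most of these genes lie on chromosome 11 in a group around Ccl2 and a group around Ccl5.

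Array medians ran from 273.3 to 311.8, and arrays of a group correlated at 0.989 to 0.997 over all genes. The first principal component parted the genotypes with 84.6% of the variance. The second parted the times in both genotypes, more widely in knockout. On it knockout 18 h replicate 1 lay at 9.69, apart from 26.2 and 26.8 for the other arrays of its group. Member results called on the knockout 18 h group are therefore also given without it, and the related lists at 18 h are given without it by their counts. Kmt2a had 2100 to 2824 in wild type and 1960 to 2174 in knockout at 18 h (log2 difference -0.19, adjusted p = 0.132), and 2069 to 2155 against 1338 to 1584 at 30 h (-0.57, adjusted p = 0.000109), and where its probes lie relative to the disruption is not known, so it does not check the labels. The fibroblast genes Col1a1 and Vim ranged from 6095 to 9527 and from 14728 to 17274 over the 12 arrays. Of 12 fibroblast markers, 4 were higher and 6 lower in knockout at each time, Pdgfra and Postn among the lower and Dcn and Col1a1 among the higher. Of all genes 20.1% were higher and 25.4% lower at 18 h, and 18.2% and 21.0% at 30 h. Without knockout 18 h replicate 1 the fibroblast counts at 18 h were 3 higher and 6 lower, with 1 call changed. Dcn, which encodes decorin, had 3.74 at 18 h and 4.33 at 30 h (adjusted p = 2.32e-14 and 3.46e-15), and Postn, which encodes periostin, -4.67 and -4.66 (adjusted p = 2.21e-11 and 2.58e-11).

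Ccl9 and Ccl5 were far lower in the knockout cells at both times, Ccl7 and Ccl3 were lower by about a factor of 2, and Ccl2 was slightly higher. Ccl17 and Ccl20 were higher in knockout at 18 h and did not pass the test at 30 h. Ccl4, Ccl8 and Ccl11 did not pass the test at either time. All tests below are limma's two-sided moderated tests on log2(intensity + 16), adjusted by Benjamini-Hochberg over all 19938 genes, and a gene is called where the adjusted p is under 0.05. The added 16 shrinks the differences of dim genes.

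Counted over the 10, 4 were called lower and 3 higher at 18 h, where 25.4% of all genes were called lower and 20.1% higher. The 30 h counts were 4 lower and 1 higher, where 21.0% of all genes were lower and 18.2% higher. The median log2 difference of the 10 was -0.08 at 18 h and -0.03 at 30 h, and that of all genes was -0.01 and 0.031. With 10 genes these counts are not far from the background shares, and the results below are about single members. The direction of the background calls depended on the scaling. At 18 h 44.2% of all calls were higher, against 51.7% under quantile scaling, 51.8% with array medians set equal and 49.2% under cyclic loess. At 30 h it was 46.5%, against 49.7%, 42.8% and 45.5% in the same order. An excess of lower genes in knockout is therefore not settled.

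**Figure D1:**
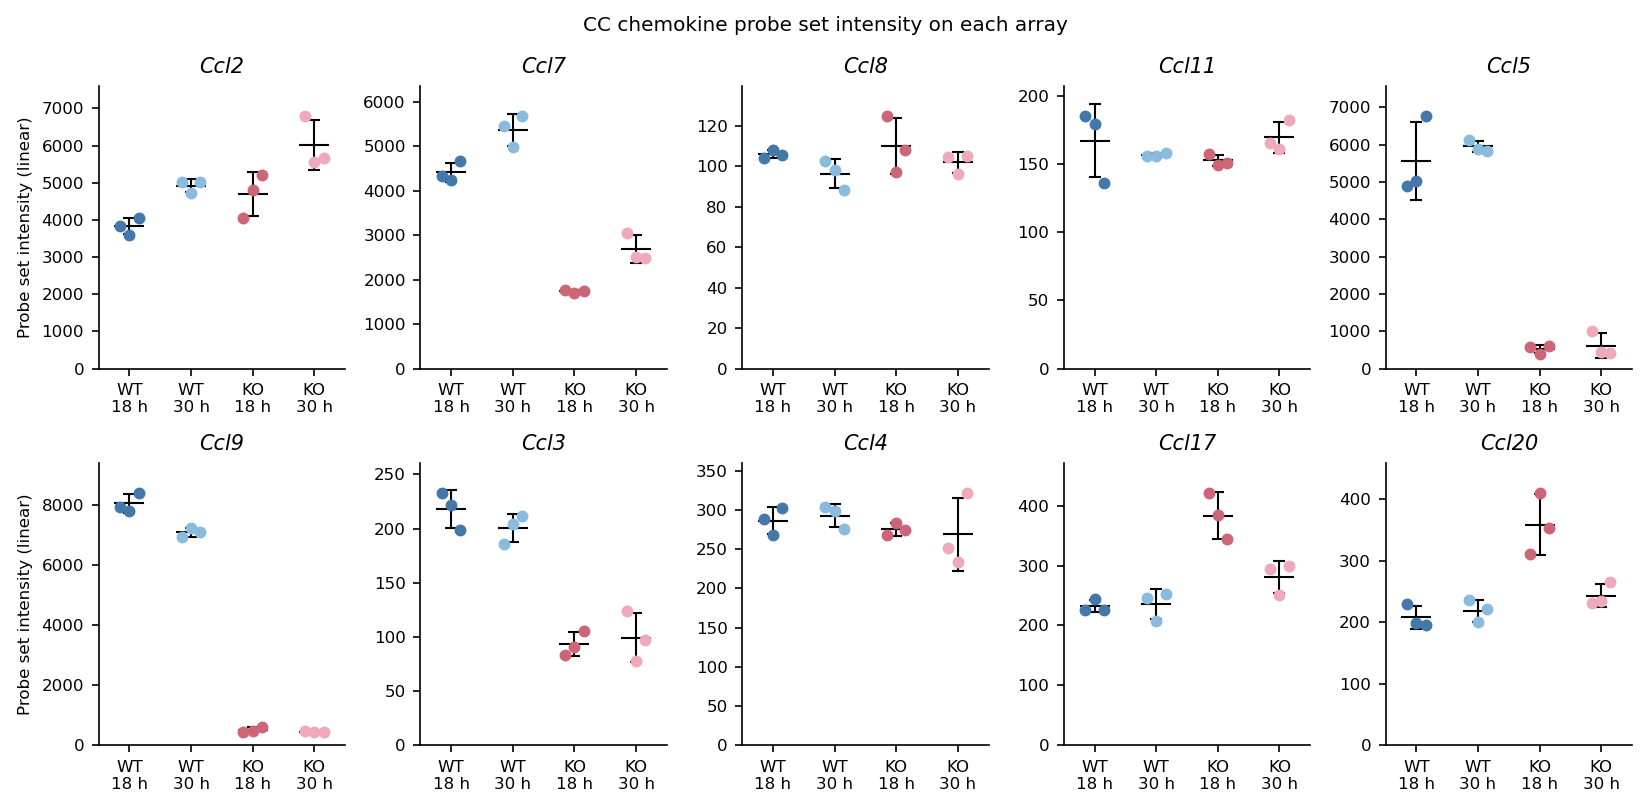
Probe set intensity (linear axis from 0) of the 10 CC chemokines on each of the 12 arrays; points are arrays, the horizontal mark is the group mean and bars are the SD (n = 3). WT is wild type and KO is knockout. The Ccl5 and Ccl9 points of knockout lie at 995 or less, far below wild type, while Ccl4, Ccl8 and Ccl11 sit at like levels in the 4 groups.

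Promoter windows from RefSeq (GRCm38.p6, 250 bases before to 50 after the gene start) were held for 5 of the 10 members. Shown are a pair that was lower in knockout at both times, Ccl9 and Ccl3, and the pair that was higher at 18 h, Ccl17 and Ccl20, to let their motifs be compared. Both strands were searched for the NF-kB consensus, the core of the interferon-stimulated response element (ISRE), the AP-1 site TGANTCA, the STAT site TTCNNNGAA and the TATA box TATAAA, and capitals mark every match.
Ccl9 (chr11:83578587-83578886, minus strand): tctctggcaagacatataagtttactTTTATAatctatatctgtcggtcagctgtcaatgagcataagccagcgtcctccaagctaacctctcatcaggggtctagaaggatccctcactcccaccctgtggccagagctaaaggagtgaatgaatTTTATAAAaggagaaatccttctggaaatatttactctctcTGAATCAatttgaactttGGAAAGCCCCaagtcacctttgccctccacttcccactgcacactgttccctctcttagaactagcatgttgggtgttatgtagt
Ccl3 (chr11:83649329-83649628, minus strand): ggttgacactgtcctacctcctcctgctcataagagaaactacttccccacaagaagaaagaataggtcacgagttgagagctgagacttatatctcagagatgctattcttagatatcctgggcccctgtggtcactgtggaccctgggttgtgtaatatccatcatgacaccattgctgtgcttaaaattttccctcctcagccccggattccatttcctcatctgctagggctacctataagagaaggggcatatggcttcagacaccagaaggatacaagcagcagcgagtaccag
Ccl17 (chr8:94810203-94810502, plus strand): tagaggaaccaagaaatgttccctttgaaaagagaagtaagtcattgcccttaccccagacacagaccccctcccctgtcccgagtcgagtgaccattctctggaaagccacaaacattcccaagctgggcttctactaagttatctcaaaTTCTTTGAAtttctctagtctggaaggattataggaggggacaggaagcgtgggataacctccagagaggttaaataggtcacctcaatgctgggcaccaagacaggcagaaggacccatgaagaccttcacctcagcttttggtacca
Ccl20 (chr1:83116516-83116815, plus strand): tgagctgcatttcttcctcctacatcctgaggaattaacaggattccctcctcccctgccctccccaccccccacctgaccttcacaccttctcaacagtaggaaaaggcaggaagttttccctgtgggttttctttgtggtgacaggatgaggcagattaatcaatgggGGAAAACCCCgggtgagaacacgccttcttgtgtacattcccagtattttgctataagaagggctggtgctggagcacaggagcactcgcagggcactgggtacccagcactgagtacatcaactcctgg

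The Ccl9 window held an NF-kB match that began 35 bases before the start, GGAAAGCCCC on the printed strand, an AP-1 match, TGAATCA, 53 bases before it, and TATA matches that began 224, 94 and 92 bases before it, the latter pair overlapping. The Ccl20 window held an NF-kB match, GGAAAACCCC, 80 bases before the start, and the Ccl17 window a STAT match, TTCTTTGAA, 99 bases before it. None of these motifs was found in the Ccl3 window. The ISRE core was in none of the windows printed. Of all 32851 windows of this length 4.51% held the NF-kB consensus, 3.44% the ISRE core, 7.81% the AP-1 site, 8.30% the STAT site and 13.6% the TATA box. A member that was lower and a member that was higher thus each had an NF-kB match, and a match is a string of letters, not a bound site.

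Ccl9, also known as MIP-1 gamma, attracts cells that carry CCR1. Its intensity was 7955, 7812 and 8420 in wild type at 18 h and 427, 484 and 603 in knockout. At 30 h it was 6938, 7244 and 7106 in wild type and 462, 438 and 430 in knockout. The genotypes were far apart on every array, the highest knockout array at 603 and the lowest wild-type array at 6938. The log2 difference was -3.97 ± 0.0953 (SE) at 18 h, a fold of 15.7 (adjusted p = 3.09e-16), and -3.95 ± 0.0953 at 30 h, a fold of 15.5 (adjusted p = 3.69e-16). Without knockout 18 h replicate 1 the 18 h value was -3.86.

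Ccl5, or RANTES, attracts T cells and monocytes. Wild-type arrays read 4891, 5031 and 6758 at 18 h, and knockout arrays 567, 386 and 601. At 30 h wild type read 6125, 5893 and 5828, and knockout 995, 434 and 419. Knockout 30 h replicate 1 stood above its group, but still below every wild-type array. The log2 difference was -3.39 ± 0.234 at 18 h (fold 10.5, adjusted p = 8.28e-10; -3.47 without knockout 18 h replicate 1) and -3.35 ± 0.234 at 30 h (fold 10.2, adjusted p = 1.16e-09). Without knockout 30 h replicate 1 the 30 h value was -3.75.

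Ccl7, or MCP-3, draws monocytes through CCR2. The wild-type arrays read 4341, 4241 and 4661 at 18 h, and later, at 30 h, 5458, 4978 and 5677. The knockout arrays read 1768, 1706 and 1752 at 18 h, and later 3044, 2511 and 2484. The groups did not overlap at either time, and the 30 h arrays lay above the 18 h arrays in both genotypes. The difference between genotypes was -1.33 ± 0.0793 at 18 h (fold 2.52, adjusted p = 9.89e-11) and a fold of 2.00 lower in knockout at 30 h (95% interval of the log2 difference -1.17 to -0.84, adjusted p = 6.63e-09). Without knockout 18 h replicate 1 the 18 h difference was -1.34.

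Ccl2, or MCP-1, the neighbour of Ccl7 and a ligand of the same receptor, went the other way. It read 3832, 3603 and 4044 in wild type and 4054, 4793 and 5218 in knockout at 18 h. At 30 h it read 5023, 4710 and 5022 in wild type and 6787, 5566 and 5666 in knockout. The knockout arrays were above the wild-type arrays at each time, but at 18 h only by a narrow margin. The log2 difference was 0.29 ± 0.0882 at 18 h (adjusted p = 0.0123) and 0.28 ± 0.0882 at 30 h (adjusted p = 0.0155). These calls rested on single arrays. The 18 h call ended without wild-type 18 h replicate 2 (0.24, adjusted p = 0.0564) or knockout 18 h replicate 3 (0.20, adjusted p = 0.0806), and the 30 h call without wild-type 30 h replicate 2 (0.25, adjusted p = 0.0648) or knockout 30 h replicate 1 (0.19, adjusted p = 0.0995), and after array medians were set equal (0.26, adjusted p = 0.0713). Ccl2 at 18 h was 0.39 without knockout 18 h replicate 1 (adjusted p = 0.000716).

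Ccl3, or MIP-1 alpha, which draws monocytes and other leukocytes, was among the dim members. Its arrays read 233, 222 and 199 in wild type and 83.1, 90.7 and 105 in knockout at 18 h. At 30 h they read 186, 204 and 211 in wild type and 123, 78.0 and 96.6 in knockout. Every knockout array was below every wild-type array. The log2 difference was -1.11 ± 0.129 at 18 h (fold 2.15, adjusted p = 9.02e-07; -1.04 without knockout 18 h replicate 1) and -0.93 ± 0.129 at 30 h (fold 1.90, adjusted p = 1.03e-05). No detection calls were used here, so whether the knockout level is above background is not known.

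Ccl4, or MIP-1 beta, lies beside Ccl3, yet its arrays overlapped between genotypes. They ranged from 269 to 304 over the wild-type arrays and from 234 to 322 over the knockout arrays. The difference was -0.05 at 18 h (95% interval -0.28 to 0.17, adjusted p = 0.743) and -0.13 at 30 h (-0.35 to 0.10, adjusted p = 0.405). The 30 h value was -0.25 and called without knockout 30 h replicate 3, which at 322 was the highest of the 12 arrays (adjusted p = 0.0346).

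Ccl17, or TARC, a CCR4 ligand for T helper cells, read 226, 245 and 226 in wild type and 422, 385 and 344 in knockout at 18 h. At 30 h it read 245, 207 and 253 in wild type and 294, 251 and 299 in knockout. The genotypes were apart at 18 h and overlapped at 30 h. The difference was 0.68 ± 0.105 at 18 h (fold 1.61, adjusted p = 2.5e-05) and 0.24 ± 0.105 at 30 h (95% interval 0.02 to 0.47, adjusted p = 0.0778). It was 0.62 at 18 h without knockout 18 h replicate 1, and the 30 h value passed without knockout 30 h replicate 2 (0.32, adjusted p = 0.0391).

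Ccl20, the only chemokine ligand of CCR6, had a like pattern. Its arrays read 230, 198 and 196 in wild type and 312, 411 and 353 in knockout at 18 h. At 30 h they read 236, 200 and 222 in wild type and 231, 234 and 265 in knockout. The 3 knockout 18 h arrays were above all the others. The difference was 0.74 ± 0.110 at 18 h (fold 1.67, adjusted p = 1.7e-05) and 0.14 ± 0.110 at 30 h (95% interval -0.09 to 0.37, adjusted p = 0.354), and 0.83 at 18 h without knockout 18 h replicate 1.

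Ccl8, or MCP-2, ranged from 88.4 to 108 in wild type and from 96.2 to 125 in knockout. Ccl11, or eotaxin, which draws eosinophils through CCR3, ranged from 136 to 185 in wild type and from 150 to 182 in knockout. The genotypes overlapped at both times for Ccl8 and at 18 h for Ccl11, whose 30 h arrays lay at 156 to 158 in wild type and 161 to 182 in knockout. The differences for Ccl8 were 0.04 (95% interval -0.18 to 0.26) at 18 h and 0.07 (-0.15 to 0.29) at 30 h. Those for Ccl11 were -0.11 (-0.33 to 0.12) and 0.10 (-0.12 to 0.33), with adjusted p = 0.476 and 0.506. These intervals leave room for small differences in either direction.

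**Figure D2:**
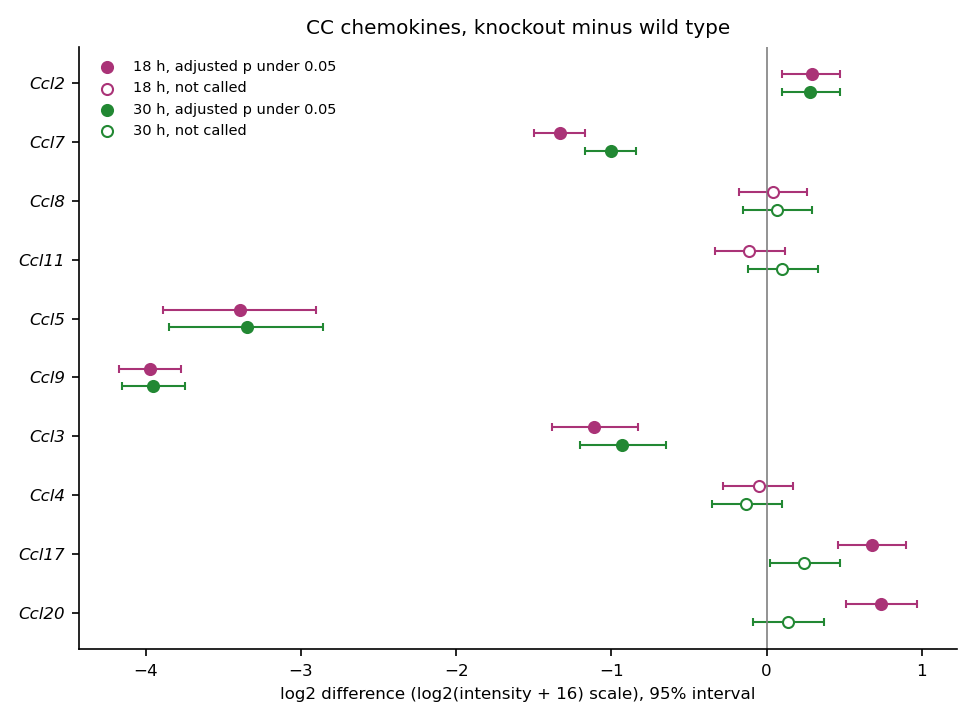
Log2 difference, knockout minus wild type, of each CC chemokine at 18 h and 30 h; bars are 95% intervals from the fit over all 12 arrays (n = 3 per group), filled points are called and open points are not. Ccl9 and Ccl5 lie between -3.97 and -3.35 at both times, and Ccl17 and Ccl20 are filled at 18 h and open at 30 h.

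Of the 4 members that were lower at both times, 3 lay in the same stretch of chromosome 11. In the RefSeq gene table of GRCm38.p6, used for the order of genes alone, chromosome 11 holds Ccl2, Ccl7, Ccl11, Ccl12, Ccl8 and Ccl1 in that order and then, after 25 coding genes, Ccl5, Ccl9, Ccl6, Ccl3 and Ccl4, with 0 coding genes between neighbours within each group. In the second group the first 4 in order were all lower in knockout at both times, Ccl6 among them. Of all genes 25.4% were called lower at 18 h and 21.0% at 30 h. Ccl6, a mouse relative of Ccl9 outside the 10 members, went from 575.9 ± 16.3 in wild type to 118.7 ± 36.7 in knockout at 18 h (SD, n = 3 each, log2 -2.17, adjusted p = 4.83e-10) and from 469.7 ± 22.5 to 95.6 ± 10.8 at 30 h (SD, n = 3 each, log2 -2.12, adjusted p = 7.78e-10). The last of that group, Ccl4, did not pass. In the first group Ccl7 alone was lower, beside Ccl2, which was higher, and Ccl11, Ccl12, Ccl8 and Ccl1 did not pass at either time. Whether a probe set also reads a close relative, such as Ccl6 and Ccl9, was not tested, and this order was noticed after the values were seen. The genes between and beside the groups are not described here, and whether they changed alike was not tested.

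**Figure D3:**
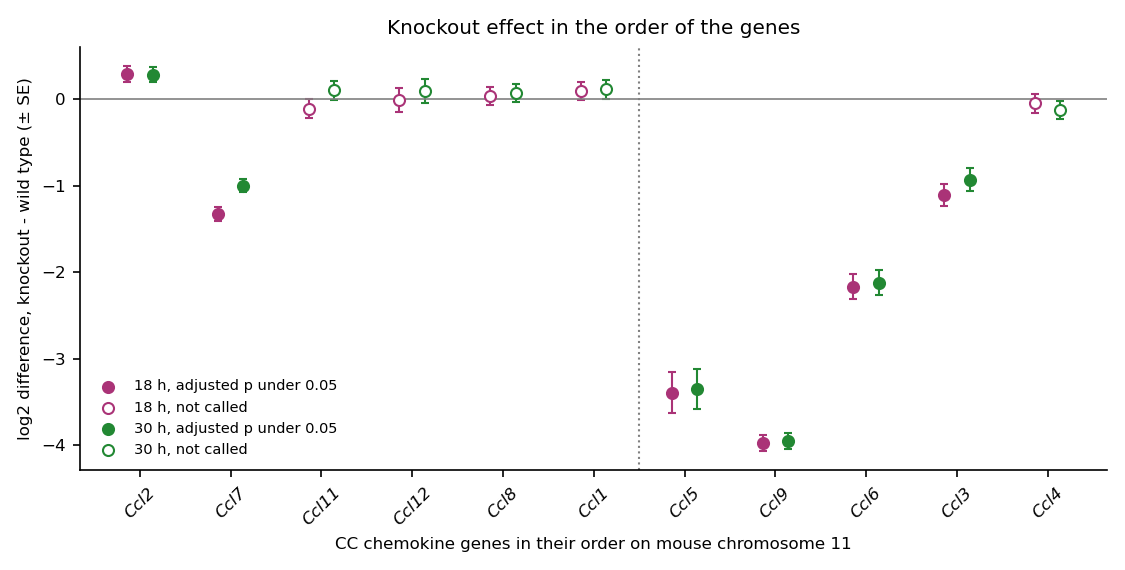
Log2 difference, knockout minus wild type, of the 11 CC chemokine genes of chromosome 11 in their order (not to scale), at 18 h and 30 h; bars are the SE of the fit (n = 3 per group), filled points are called, and the dotted line parts the 2 groups of genes. Ccl5, Ccl9, Ccl6 and Ccl3 are lower at both times, and Ccl7 is the lower gene of the first group.

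Between 18 h and 30 h Ccl2 rose in both genotypes, Ccl7 rose in knockout, and Ccl17 and Ccl20 fell in knockout. In wild type 1 of the 10 was called higher and 0 lower at 30 h, where 1.40% of all genes were called higher and 0.948% lower. In knockout 2 were higher and 2 lower, where 14.4% of all genes were higher and 12.9% lower. After array medians were set equal, the share of wild-type time calls that were higher went from 59.6% to 79.2%. At an unadjusted p under 0.05, 2828 genes passed in wild type, against 468 after adjustment, and of the members Ccl2 and Ccl7 passed, both higher at 30 h.

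Ccl2 rose by 0.36 ± 0.0882 in wild type (fold 1.29, adjusted p = 0.0389) and by 0.36 ± 0.0882 in knockout (fold 1.28, adjusted p = 0.00485), with 30 h arrays above 18 h arrays in each. The wild-type call ended without any one of wild-type 18 h replicate 1 (0.36, adjusted p = 0.111) or 2 (0.32, adjusted p = 0.175), wild-type 30 h replicate 1 (0.35, adjusted p = 0.166), 2 (0.39, adjusted p = 0.0682) or 3 (0.35, adjusted p = 0.168) and knockout 18 h replicate 2 (0.36, adjusted p = 0.0525), under cyclic loess scaling (0.32, adjusted p = 0.0517) and without an intensity trend (0.36, adjusted p = 0.111). The knockout rise was 0.26 without knockout 18 h replicate 1 (adjusted p = 0.023) and 0.27 without knockout 30 h replicate 1 (adjusted p = 0.0343).

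Ccl7 rose in knockout by 0.61 ± 0.0793 (fold 1.53, adjusted p = 1.97e-05), and by 0.62 without knockout 18 h replicate 1. In wild type its difference of 0.28 did not pass (adjusted p = 0.0747), though its arrays did not overlap. It passed with the wild-type arrays fitted alone (0.28, adjusted p = 0.0309) and without knockout 30 h replicate 1 (0.28, adjusted p = 0.0331). The difference of the 2 time effects was 0.33 ± 0.112 (adjusted p = 0.0622), close to the threshold. It passed without knockout 18 h replicate 1 (0.34, adjusted p = 0.0476), without knockout 30 h replicate 3 (0.38, adjusted p = 0.0463) and with dim genes left out (0.33, adjusted p = 0.0479), and over all alternatives the adjusted p ran up to 0.354, with array medians set equal.

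Ccl20 fell in knockout by 0.52 ± 0.110 (adjusted p = 0.00138), and by 0.62 without knockout 18 h replicate 1. In wild type it had a difference of 0.07 (95% interval -0.16 to 0.30). The time effects differed by -0.59 ± 0.155 (adjusted p = 0.0159), which is also the change of the genotype difference between the times. This call ended without knockout 18 h replicate 2, the array of 411 (-0.50, adjusted p = 0.0584), and was -0.69 without knockout 18 h replicate 1. Of the 10 members 1 was called lower and 0 higher for the difference of time effects, where 6.80% of all genes were called lower and 6.62% higher, and 4959 genes passed at an unadjusted p under 0.05, the members Ccl7, Ccl17 and Ccl20 among them. The share of those calls that were higher was 49.3%, which became 27.9% with equal array medians and 35.9% with cyclic loess.

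Ccl17 fell in knockout by 0.43 ± 0.105 (adjusted p = 0.0049), and by 0.36 without knockout 18 h replicate 1. In wild type the difference was 0.01 (95% interval -0.21 to 0.23). The difference of time effects was -0.44 ± 0.149 and missed the threshold (adjusted p = 0.0612). It passed under quantile scaling (-0.54, adjusted p = 0.025), with array medians set equal (-0.53, adjusted p = 0.0309), under cyclic loess (-0.52, adjusted p = 0.0244) and with dim genes left out (-0.44, adjusted p = 0.0479). It was further from passing without knockout 18 h replicate 1 (-0.37, adjusted p = 0.104), and the highest adjusted p, 0.167, came without knockout 30 h replicate 2.

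Ccl9 and Ccl5, the members with the widest genotype difference, were not called for time in either genotype. Ccl9 had a time difference of -0.18 in wild type (95% interval -0.38 to 0.02) and -0.17 in knockout (-0.37 to 0.03). Without knockout 18 h replicate 1 the knockout value became -0.28 and passed (adjusted p = 0.0158). Ccl5 had 0.11 in wild type (-0.38 to 0.61) and 0.15 in knockout (-0.34 to 0.65), the widest intervals of the 10. Ccl3, Ccl4, Ccl8 and Ccl11 had time differences between -0.12 and 0.14 and were not called in either genotype.

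**Figure D4:**
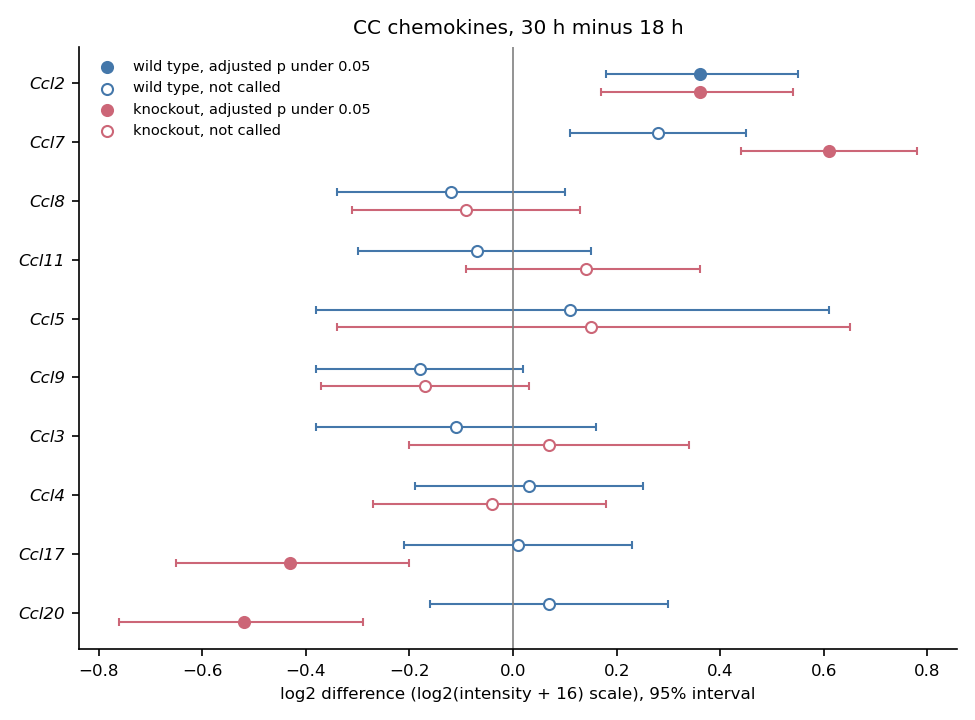
Log2 difference, 30 h minus 18 h, of each CC chemokine in wild type and knockout; bars are 95% intervals (n = 3 per group), filled points are called. The wild-type and knockout values of Ccl2 coincide at 0.36, while those of Ccl20 lie at 0.07 and -0.52.

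The 4 group means of Ccl5 and Ccl9 spanned 3.51 and 4.14 on the log2 scale, and no other member spanned 2. Likeness to other genes was taken as the root mean square distance between the 4 group means of 2 genes, each centred on its own mean, among 897 other named genes with a span of at least 2. Nearest to Ccl5 were the interferon-induced genes Ifi35 (distance 0.0554) and Ifi205 (0.0828) and the lectin gene Clec2g (0.082). Nearest to Ccl9 were the sarcoglycan gene Sgcd (0.0162), the kinase gene Sgk3 (0.0503) and the oligoadenylate synthetase gene Oas1c (0.0555). The 4 means rest on the same 12 arrays, so this likeness is a description with no test. These distances are smaller than the SE of the genotype differences, 0.234 for Ccl5 and 0.0953 for Ccl9. Leaving out knockout 30 h replicate 1 alone moved the 30 h difference of Ccl5 from -3.35 to -3.75. The ranking was not repeated without that array, so which genes come nearest is uncertain.

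Among the other CC chemokines with a probe set, 2 of 9 were lower and 0 higher at 18 h, Ccl6 and Ccl25, and 1 of 9 was lower at 30 h, Ccl6 again. For this and the next list, 25.4% of all genes were lower and 20.1% higher at 18 h. At 30 h 21.0% were lower and 18.2% higher. Ccl25, a thymus and gut chemokine, had -0.32 at 18 h (adjusted p = 0.0183), rose in knockout by 0.61 (adjusted p = 0.000271) and had a difference of time effects of 0.51 (adjusted p = 0.0292). The list median was -0.01 at 18 h and 0.07 at 30 h. Of 14 receptors for CC chemokines, limma called 0 at 18 h (1 at an unadjusted p under 0.05) and 1 at 30 h, the atypical receptor Ccrl2, which was lower (-0.29, adjusted p = 0.0439). The list medians were 0.02 and 0.01, and 3 of the 14 had a mean above the 30th percentile of all genes.

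Genes of the NF-kB pathway were called in both directions. Of 19 NF-kB factors and inhibitors 10 were higher and 3 lower in knockout at 18 h, and 9 higher and 4 lower at 30 h, with medians of 0.39 and -0.02. The shares of all genes were 20.1% higher and 25.4% lower at 18 h, and 18.2% and 21.0% at 30 h. Tnfaip3, which encodes the feedback inhibitor A20, at 18 h was 534.7 ± 24.2 on the wild-type arrays against 1747.1 ± 243 on those of knockout (SD, n = 3 each, log2 1.67, adjusted p = 8.67e-11), and the inhibitor gene Nfkbie had 1.61 (adjusted p = 1.6e-10). Bcl3, a nuclear partner of NF-kB, and Nfkbie had 1.78 and 1.71 at 30 h (adjusted p = 4.48e-12 and 8.15e-11). The adaptor gene Myd88, which links Toll-like and interleukin 1 receptors to NF-kB, had -2.09 at 18 h and -1.37 at 30 h (adjusted p = 1.02e-11 and 4.89e-09). Ikbkg, the scaffold of the IKK complex, had -0.88 and -0.79 (adjusted p = 3.74e-08 and 2.32e-07).

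Of 19 receptor genes that can induce chemokines 11 were lower and 4 higher at 18 h, and 12 lower and 4 higher at 30 h, with medians of -0.46 and -0.54. Over all genes the shares were 25.4% lower and 20.1% higher at 18 h, and 21.0% and 18.2% at 30 h. Tlr3, the sensor of double-stranded RNA, went from 3015.7 ± 73.9 in wild type to 100.7 ± 38.1 in knockout at 18 h (SD, n = 3 each, log2 -4.75, adjusted p = 1.36e-14) and had -3.66 at 30 h (adjusted p = 5.6e-13). Osmr, the oncostatin M receptor gene, had -2.68 and -1.98 (adjusted p = 7.33e-11 and 6.12e-09). On the higher side, Il13ra1, a receptor chain for interleukins 4 and 13, at 18 h was 38.2 ± 13.3 on the wild-type arrays against 2665.4 ± 469 on those of knockout (SD, n = 3 each, log2 5.65, adjusted p = 2.81e-15) and had 4.50 at 30 h (adjusted p = 6.81e-14). Tnfrsf1b, which encodes TNF receptor 2, had 1.18 and 0.89 (adjusted p = 7.32e-10 and 4.38e-08).

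At both times 6 of 8 IRF and STAT factors were lower and 1 was higher in knockout, with list medians of -1.09 at 18 h and -0.83 at 30 h. Among all genes 25.4% were lower and 20.1% higher at 18 h, and 21.0% and 18.2% at 30 h. Irf7, the main amplifier of the interferon response, was at 3497.3 ± 385 and 3282.6 ± 211 in wild type at 18 h and 30 h, and at 63.5 ± 15.2 and 47.4 ± 3.82 in knockout (SD, n = 3 each), log2 differences of -5.48 and -5.70 (adjusted p = 1.74e-16 and 1.43e-16). Such knockout levels, like those of Tlr3 and Ccl6 and the wild-type level of Il13ra1, cannot be judged over background, so the sizes of these differences are uncertain. Irf9, the DNA-binding part of ISGF3, had -3.44 at 18 h (adjusted p = 1.02e-13), and Stat2, another part, had -3.62 at 30 h (adjusted p = 2.54e-17). Irf5 was the factor that was higher, at 0.72 and 0.68 (adjusted p = 4.12e-06 and 9.95e-06). Without knockout 18 h replicate 1 the 18 h calls of the other CC chemokines, the receptors for CC chemokines, the NF-kB genes and the IRF and STAT factors were the same, with 0 calls changed in each list, and 1 call changed among the inducing receptors, where Il17ra became higher (0.25, adjusted p = 0.0322).

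**Figure D5:**
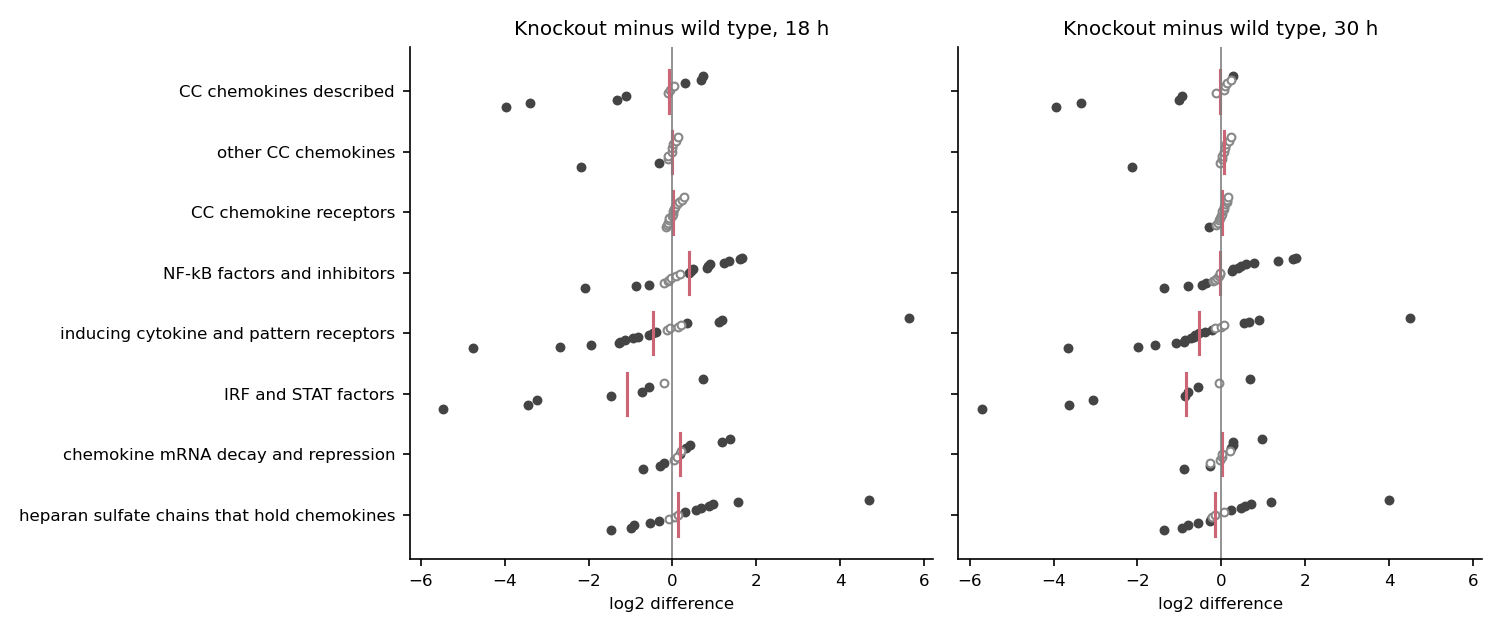
Log2 difference, knockout minus wild type, of each gene of the CC chemokines described and of 7 related gene lists at 18 h (left) and 30 h (right); points are genes, filled where called, and vertical marks are list medians. The IRF and STAT factors lie mostly to the left, with medians of -1.09 and -0.83, and the receptors of CC chemokines lie near 0.

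Several CC chemokines are made in quantity by macrophages, so leukocyte markers were read beside them. Of 18 macrophage and leukocyte markers 0 were lower in knockout at either time (also 0 at an unadjusted p under 0.05), 2 were higher at 18 h, Cd68 and Ly6g, and 1 at 30 h, Ly6g. Shares over all genes were 25.4% lower and 20.1% higher at 18 h, and 21.0% and 18.2% at 30 h. Their summed intensity ran from 3826 to 3899 in wild type and from 4119 to 5714 in knockout at 18 h, and from 3507 to 3665 and from 3392 to 3913 at 30 h, and none was listed at 0. Ptprc, which encodes the leukocyte antigen CD45, ranged from 135.9 to 167.8 in wild type and from 130.5 to 172.6 in knockout, and Csf1r from 165.1 to 206.3 and from 179.7 to 222.9. Cd68, a lysosomal protein, at 18 h was 1174.9 ± 47.3 on the wild-type arrays against 2304.8 ± 873 on those of knockout (SD, n = 3 each, log2 0.88, adjusted p = 0.00144). Of the 8 endothelial markers Kdr and Egfl7 were higher at both times, and of the 8 epithelial markers Epcam was higher at 18 h (0.33, adjusted p = 0.00766). The higher sum of knockout at 18 h was nearly all Cd68, which read 1315, 2635 and 2964 there. The other 17 markers summed to 2662 to 2704 in wild type and 2734 to 2805 in knockout at 18 h. Ly6g was not called at 18 h without knockout 18 h replicate 1 (0.25, adjusted p = 0.106). In RNA from a whole culture, fewer cells that make a chemokine and less RNA per cell cannot be told apart.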

How the data were processed

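Total RNA, 100 ng per sample, was hybridised to 12 Affymetrix arrays. Each deposited value is a linear intensity of a probe set, for which the submitters' processing notes name Expression Console 1.1 and PLIER 2.0. How arrays were normalized to each other was not given in the sources used here. Of 35557 probe sets 21789 have 1 gene symbol in the platform annotation, 1621 several and 12147 none listed, and 21698 were matched by Entrez number to RefSeq symbols (GRCm38.p6).

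Where a gene had several probe sets, the one of highest mean stood for it. Deposited intensities were taken to log2(intensity + 16), and the 4 group means fitted for all 19938 genes over 12 arrays with limma 3.58.1 in R 4.3.3 (eBayes with an intensity trend), without a filter on dim genes. Adjusted p-values are Benjamini-Hochberg over all genes, called under 0.05. The number of arrays limits the precision.

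All 10 members are named. From each related list up to 2 called rises and 2 called falls were named for each genotype comparison, and up to 1 each for the others; genes of like profile followed a distance rule. The members, lists and rules were chosen with earlier results of these data known. Listed genes without a probe set of 1 symbol are not analysed here.

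Alternatives changed the offset (1 or 64), the scaling (quantile, equal medians, cyclic loess), the filter (30th percentile), the trend (none, robust eBayes), the arrays fitted (only those compared, or each left out), the probe sets (their mean) and the block (replicate number). The fit was tested on simulated data for 19938 genes. Of 100 genes changed by 1 (log2) it recovered 93 for the genotype comparison at 18 h, 100 at 30 h, 100 for wild-type time, 99 for knockout time and 77 for the difference between time effects. Of 100 changed by 0.5 it recovered 73, 57, 56, 59 and 22, in the same order. Unchanged genes made up 4.05%, 4.27%, 5.45%, 1.86% and 2.94% of the genes called. Only these genes were changed, with independent normal noise for each gene, while in the data 45.5% of genes were called between genotypes at 18 h. Recovery in the data may therefore differ.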

Additional observations from a re-analysis of the deposited data

Results flagged for a closer look

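Ccl20, the CCR6 ligand, had a time effect that differed between the genotypes, by -0.59 on the log2 scale (limma, adjusted p = 0.0159, time effect of knockout minus that of wild type). It fell by 0.52 in knockout, with the 3 arrays of 30 h all below the 3 of 18 h, and was at 0.07 in wild type, with overlapping arrays. Over the alternatives run the adjusted p was between 0.00342 and 0.0584, and the highest came from leaving out knockout 18 h replicate 2. The group means of Ccl20 were low, from 208 to 358.6, and its signal over background could not be judged.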

How the results depend on the processing

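At 18 h the counts of 4 members lower and 3 higher in knockout stayed within 1.5 times under all alternatives. Of the member values, 1096 of 1125 computed under an alternative kept their side of the threshold, and 0 calls were reversed. Values that were not called could change sign within that count. Ccl5 for time in knockout went from 0.15 to -0.25 without knockout 30 h replicate 1. With the replicate block the members called higher and lower were 3 and 4 at 18 h and 1 and 4 at 30 h. They were 1 and 0 for time in wild type, 2 and 2 for time in knockout, and 0 and 1 for the difference of time effects. No member call changed. Nothing in the labels says that the replicate numbers pair the samples. Deviations of 18 same-numbered pairs correlated at -0.393 to 0.339, with 4 above 0.1. With 3 arrays per group this cannot decide whether the numbers mark a shared culture or batch. The 1 member called higher at 30 h, Ccl2, became 0 after array medians were set equal and 0 to 2 when an array was left out. For time in wild type the 1 member called higher became 0 under cyclic loess, 0 without the trend, 2 with only the arrays compared and 0 to 2 with an array left out, and all genes called went from 468 to 263 without the trend, 796 with only the arrays compared and 129 to 847 with an array left out. For the difference of time effects the 0 members called higher became 1 with the filter and 0 to 1 with an array left out. The 1 called lower became 2 with the filter, quantile, median or cyclic loess scaling and 0 to 2 with an array left out, and all genes called went from 2674 to between 1731 and 4022. The cause of these shifts was not tested. Signal over background could not be judged for any member. The members of lowest mean, Ccl3, Ccl8 and Ccl11, and the likewise dim Ccl4, Ccl17 and Ccl20 therefore have uncertain values. In wild type at 18 h Ccl17 and Ccl20 had means of 232.3 and 208, against 218.1 for Ccl3. Leaving knockout 18 h replicate 1 out of the related lists, and Cd68 out of the leukocyte marker sum, were chosen after seeing the data.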

Other observations

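Genes for proteins that decide how long chemokine messages last, or that hold the secreted ligands, were called in both directions. Of 11 genes of mRNA decay and repression 5 were higher and 3 lower in knockout at 18 h, and 4 higher and 2 lower at 30 h (medians 0.19 and 0.02). All genes had shares of 20.1% higher and 25.4% lower at 18 h, and 18.2% and 21.0% at 30 h. Dusp1, a phosphatase that ends MAP kinase signalling, had 1.37 at 18 h and 0.96 at 30 h (limma, adjusted p = 1.27e-08 and 1.92e-06). Zfp36, which encodes tristetraprolin, a factor that speeds the decay of cytokine messages, had 1.18 at 18 h (adjusted p = 1.75e-07) and fell by 1.17 between the times in knockout (adjusted p = 2.32e-06). Zfp36l1, its relative, had -0.71 and -0.88 (adjusted p = 1.34e-06 and 1.21e-07).

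Of 15 genes for heparan sulfate and its core proteins 7 were higher and 5 lower at 18 h, and 6 higher and 6 lower at 30 h (medians 0.14 and -0.16). Beside them, 20.1% of all genes were higher and 25.4% lower at 18 h, and 18.2% and 21.0% at 30 h. The glypican gene Gpc6 at 18 h was 145.5 ± 8.09 on the wild-type arrays against 4156.2 ± 119 on those of knockout (SD, n = 3 each, log2 4.69, adjusted p = 1.92e-17) and had 4.01 at 30 h (adjusted p = 1.43e-16). Its wild-type level cannot be judged over background, so the size of these differences is uncertain. The syndecan genes split, with Sdc3 at 1.57 and Sdc1 at -1.47 at 18 h (adjusted p = 6.59e-12 and 3.56e-11). The 18 h calls of both lists were the same without knockout 18 h replicate 1, with 0 calls changed. In wild type limma called 0 of these 15 genes between the times (3 at an unadjusted p under 0.05), and in knockout 6 fell and 0 rose. Across all genes 1.40% rose and 0.948% fell in wild type, and 14.4% rose and 12.9% fell in knockout.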
